A study of Mus musculus with 9 samples.

Results

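The transcripts described here are those of 9 genes of transforming growth factor beta (TGF-beta) signalling, taken by gene symbol from a table of 55357 mouse genes. They are the ligand genes Tgfb1, Tgfb2 and Tgfb3, the signal transducers Smad2, Smad3 and Smad4, the inhibitory Smad gene Smad7, and the response genes Id1 and Skil. All 9 were found, each as 1 row. The rows were found by symbol alone, though the genes were proposed with earlier results of these data known.

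TGF-beta ligands are secreted in a latent form and, once released, bring together a type II and a type I receptor kinase at the cell surface. The type I receptor phosphorylates Smad2 and Smad3, which enter the nucleus with Smad4 and switch genes on or off. The related bone morphogenetic proteins (BMPs) use Smad1, Smad5 and Smad9 with the same Smad4, and Id1 is a classic target of that branch. Smad7 and Skil are induced by the pathway and restrain it, Smad7 at the receptor and Skil at the DNA-bound Smad complex. In the glomerulus TGF-beta is best known for driving mesangial cells to deposit extracellular matrix.

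Polyadenylated RNA was measured in the mouse kidney line SV40-MES-13, labelled as mesangial, under depletion of Drosha, the enzyme that releases microRNA hairpins from their primary transcripts in the nucleus. Cells infected with an empty lentiviral vector (EV, labelled WT, n = 2) were compared with cells infected with the same vector carrying the Drosha shRNA sh5 (n = 1) or sh7 (n = 2). The titles call the shRNA libraries knockouts, the protocols describe knockdown, and the control carries no shRNA at all. Cells were grown in medium with serum, and no added TGF-beta is mentioned in the labels. The shRNA sequences are shown because they are what separates the 2 knockdown groups, and both are directed at Drosha.
sh5: cctggaatatgtccacacttt
sh7: gtgtgcccattgaaataaa

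Drosha mRNA was at 60.0 and 56.4 TPM with EV, 36.0 TPM with sh5, and 8.39 and 14.9 TPM with sh7, so that every knockdown library lay below both controls. TPM is transcript abundance per length, scaled to one sum in every library. In bulk RNA, fewer cells expressing a gene and less RNA per cell cannot be told apart. The log2 difference of Drosha from EV was -2.27 (SE 0.266, adjusted p = 0.109) for sh7 and -0.68 (SE 0.326, adjusted p = 0.572) for sh5, by limma across all genes. Dgcr8, also of the microRNA pathway, was at 26.7 and 26.3 TPM with EV, 24.3 with sh5, and 171 and 161 with sh7. Mir22hg was at 4.55 and 4.46 TPM with EV, 1.20 with sh5, and 42.0 and 38.4 with sh7. Mir17hg was at 2.24 and 2.30 TPM with EV, 0.545 with sh5, and 7.06 and 10.6 with sh7. The rise of these genes in sh7 was thus absent in sh5. By correlation, EV replicate 1 stood apart from the other libraries. It correlated with EV replicate 2 at r = 0.968 over 12728 genes, whereas the correlation of EV replicate 2 was r = 0.982 with sh5. The summed level of 12 interferon-stimulated genes was 224 TPM in EV replicate 1, 2504 TPM in EV replicate 2 and 1806 to 4219 TPM under knockdown, and its part in the results below was not tested. Of 11 mesangial markers, 9 stayed under 1 TPM in every library, among them Pdgfrb at 0.0899 to 0.251 TPM and Itga8 at no more than 0.0117 TPM, and Mcam alone passed the filter, at 6.45 to 8.08 TPM. Of 9 tubule and epithelial markers, 7 passed, with Krt18 at 454 to 673 TPM, Cdh16 at 126 to 154 TPM and Pax8 at 51.7 to 89.0 TPM. Lower in this list were Cdh1 at 1.78 to 6.95 TPM and Lrp2 at 1.11 to 2.68 TPM, and Slc34a1 and Umod were listed at 0 in every library. Summed levels ran from 8.10 to 9.51 TPM for the mesangial list and from 757 to 1044 TPM for the epithelial list, and both ranges overlapped between EV and knockdown. The defining markers thus went against the label mesangial, and the cells are called by the name of the line.

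Promoter sequences from RefSeq (GRCm38.p6) were matched for Tgfb1, Tgfb2 and Smad3. They are shown because these were the 3 of the 9 genes with a matched promoter sequence. Any relation of the sequences to transcript level was not tested. Each window is the 250 bases before the RefSeq start, read along the gene's strand. Capitals mark the GC box GGGCGG on either strand and the TATA box TATAAA on either strand, and no match of one overlaps the other.
Tgfb1, chr7:25686752-25687001, plus strand: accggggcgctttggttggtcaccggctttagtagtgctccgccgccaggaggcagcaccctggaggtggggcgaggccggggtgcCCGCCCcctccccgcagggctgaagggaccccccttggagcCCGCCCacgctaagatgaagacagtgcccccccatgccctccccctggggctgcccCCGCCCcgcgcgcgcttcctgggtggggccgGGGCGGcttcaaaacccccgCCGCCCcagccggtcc
Tgfb2, chr1:186705990-186706239, minus strand: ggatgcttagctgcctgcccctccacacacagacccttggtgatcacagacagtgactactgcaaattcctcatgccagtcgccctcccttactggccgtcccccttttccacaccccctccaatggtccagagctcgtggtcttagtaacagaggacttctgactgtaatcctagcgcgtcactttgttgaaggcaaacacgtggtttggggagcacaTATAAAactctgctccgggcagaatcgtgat
Smad3, chr9:63757995-63758244, minus strand: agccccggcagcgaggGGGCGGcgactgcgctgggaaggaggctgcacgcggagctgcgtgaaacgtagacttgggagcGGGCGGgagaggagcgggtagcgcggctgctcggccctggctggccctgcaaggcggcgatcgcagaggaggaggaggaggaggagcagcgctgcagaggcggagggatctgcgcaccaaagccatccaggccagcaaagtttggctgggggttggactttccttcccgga
The Tgfb1 window held 5 GC boxes and 0 TATA boxes in a sequence of 75.2% G and C. The Tgfb2 window held 0 GC boxes and 1 TATA box, whose first base lies 31 bases before the start, in 53.6% G and C. The Smad3 window held 2 GC boxes and 0 TATA boxes in 69.2% G and C. Of 32851 promoter windows of the same length, 32.7% held a GC box and 12.4% a TATA box on either strand, and the median G and C content was 52.4%. These matches describe the letters of the windows and show no binding.

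Among the ligands, Tgfb1 was the main transcript in every library. Tgfb1, which encodes the ligand best known from kidney scarring, was at 63.9 and 68.4 TPM with EV, 67.7 TPM with sh5, and 68.9 and 60.8 TPM with sh7. In TPM as deposited, it was one of the steadier transcripts of the cells. Its highest library exceeded its lowest by 1.13 times, and 5.76% of the 12728 tested genes had a smaller range of log2(TPM + 1) over the 5 libraries. Under median-of-ratios scaling and under quantile normalization, the sh5 library lay above all EV and sh7 libraries for Tgfb1.

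Tgfb2, whose promoter window held the TATA box, was at 1.36 and 1.15 TPM with EV, 1.15 TPM with sh5, and 1.03 and 1.94 TPM with sh7. The sh7 libraries held both the lowest and the highest of these values, so the groups overlapped. Tgfb3 was at 0.702 and 0.479 TPM with EV, 0.611 TPM with sh5, and 0.613 and 0.694 TPM with sh7. All sh5 and sh7 values of Tgfb3 lay between those of the 2 EV libraries. In TPM, which is scaled by transcript length, mean Tgfb1 exceeded mean Tgfb2 by 49.7 times and mean Tgfb3 by 106 times. Tgfb1 made up 95.8% to 97.7% of the summed TPM of the ligand genes in each library.

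Among the transducers, Smad2 and Smad4 were close to each other and Smad3 was lower. Smad2 was at 52.0 and 55.9 TPM with EV, 44.5 TPM with sh5, and 55.1 and 56.1 TPM with sh7. The sh5 library was the lowest of the 5, and EV and sh7 overlapped. Smad3, the other receptor-activated Smad of the TGF-beta branch, was at 15.4 and 16.6 TPM with EV, 14.5 TPM with sh5, and 14.8 and 19.8 TPM with sh7. The sh7 values lay on either side of both EV values. Smad2 exceeded Smad3 by 2.83 to 3.72 times within a library. Smad4, the partner shared by both branches, was at 42.6 and 44.4 TPM with EV, 43.5 TPM with sh5, and 49.7 and 45.6 TPM with sh7. Both sh7 libraries lay above both EV libraries for Smad4, and the sh5 library lay between the EV libraries.

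Among the inhibitors and response genes, Smad7 and Id1 spread widely between libraries, with the highest at 2.16 and 1.83 times the lowest, whereas Skil, at 1.26 times, spread as little as Smad2. Smad7 was at 12.6 and 8.14 TPM with EV, 6.64 TPM with sh5, and 6.72 and 14.3 TPM with sh7. The sh7 libraries lay outside the EV range, one below it and one above it. Id1, which encodes an inhibitor of helix-loop-helix transcription factors, was at 106 and 148 TPM with EV, 104 TPM with sh5, and 100 and 184 TPM with sh7. As for Smad7, the sh7 values of Id1 enclosed those of EV. Skil, which encodes the corepressor SnoN, was at 20.7 and 19.9 TPM with EV, 19.4 TPM with sh5, and 18.7 and 23.6 TPM with sh7, again with sh7 on either side of EV.

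By mean level the order was Id1 (128 TPM), Tgfb1 (65.9), Smad2 (52.7), Smad4 (45.1), Skil (20.5), Smad3 (16.2), Smad7 (9.68), Tgfb2 (1.33) and Tgfb3 (0.620). The library ranges of Smad2 and Smad4 overlapped, as did those of Skil and Smad3, and the other neighbours in this order did not overlap. Smad3 and Smad7 came close, the lowest Smad3 library at 1.01 times the highest Smad7 library.

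**Figure D1:**
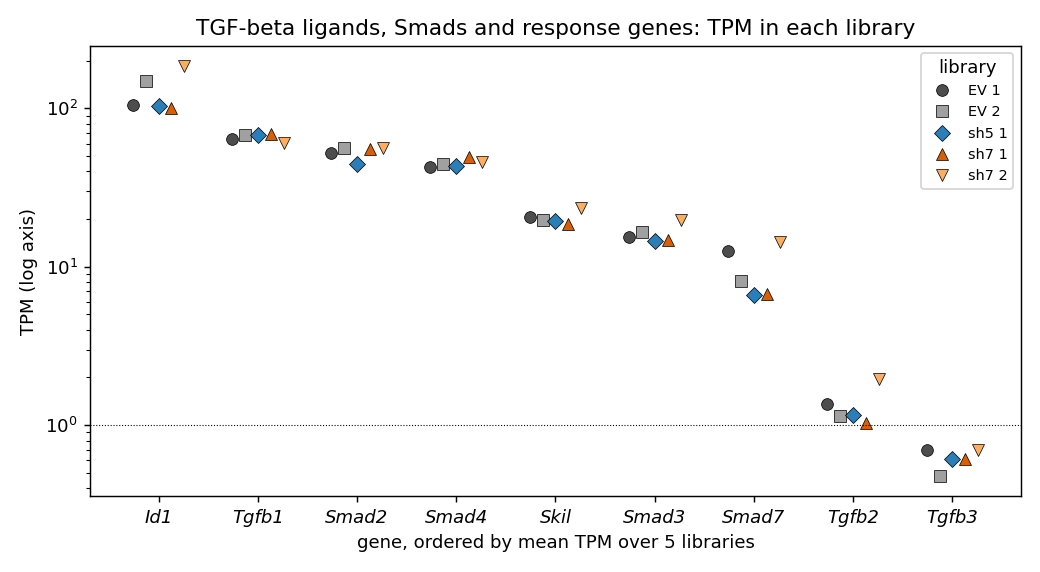
TPM of the 9 genes in each of the 5 libraries on a log axis, ordered by mean TPM, with the filter of 1 TPM as a dotted line. Tgfb1 stays between 60.8 and 68.9 TPM, whereas sh7 replicate 2 holds the highest value of Id1, Skil, Smad2, Smad3, Smad7 and Tgfb2.

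The first comparison set all 3 knockdown libraries against EV. Tgfb3 was below the filter of a mean of 1 TPM, so 8 genes were tested. By limma 0 of the 8 passed an adjusted p of 0.05, and 0 had an unadjusted p under 0.05. Over all tested genes 0.0236% passed the adjusted threshold, and 2.43% were higher and 1.33% lower at an unadjusted p under 0.05. Tgfb1 averaged 66.2 ± 3.15 TPM with EV (SD, n = 2), and its log2 difference was -0.0098 (SE 0.109, adjusted p = 0.998), with a 95% interval of -0.28 to 0.26. For Smad4 it was 0.085 (SE 0.113, adjusted p = 0.954), with an interval of -0.19 to 0.36. The widest interval was that of Smad7, -1.10 to 0.70 around a difference of -0.20 (SE 0.369, adjusted p = 0.972). The intervals of the other 7 genes lay within a 2-fold change of TPM + 1 in either direction. For Tgfb2, with a mean of 1.33 TPM, that bound allows larger changes in TPM itself. In 0 of the 8 genes did all knockdown libraries lie on one side of both EV libraries, against 12.0% of all tested genes above and 7.20% below. The median log2 difference was 0.0022 for the 8 genes and 0.029 for all genes.

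For sh7, the stronger knockdown by Drosha mRNA, 0 of 8 genes passed limma's adjusted threshold and 0 had an unadjusted p under 0.05, against 0.0157% of all genes called, and 10.3% higher and 4.15% lower at the unadjusted level. The largest log2 difference on the higher side was that of Smad4, 0.13 (SE 0.0979, adjusted p = 0.562), with group means of 43.5 ± 1.23 TPM with EV and 47.6 ± 2.92 TPM in sh7 (SD, n = 2 each). The interval for Smad4 was -0.13 to 0.38. Smad4 was the 1 gene of the 8 whose sh7 libraries lay above EV, where 35.8% of all tested genes did so, and 0 lay below, where 14.3% did. Under median-of-ratios scaling and under quantile normalization the Smad4 groups overlapped. Tgfb1 differed by -0.031 (SE 0.104, interval -0.30 to 0.24, adjusted p = 0.907) and Smad2 by 0.044 (SE 0.0914, interval -0.19 to 0.28, adjusted p = 0.843). Id1 averaged 127 ± 29.9 TPM with EV and 142 ± 59.2 TPM with sh7 (SD, n = 2 each), with an interval of -0.73 to 0.97. For Smad7 the interval was -1.05 to 0.98, and those of the other 7 genes lay within 2-fold of TPM + 1, a looser bound in TPM for Tgfb2. Tgfb3, tested without a filter, differed by 0.059 (SE 0.113, interval -0.30 to 0.42, adjusted p = 0.849). The median over the 8 genes was 0.072, beside 0.089 over all genes, which quantile normalization moved by -0.11.

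For the single sh5 library, 0 of 8 genes passed limma's adjusted threshold and 0 had an unadjusted p under 0.05, against 0% of all genes called, and 1.59% higher and 7.96% lower at the unadjusted level. The smallest p was that of Smad2, with a log2 difference of -0.27 (SE 0.112, interval -0.56 to 0.021, adjusted p = 0.536). Smad7 differed by -0.54 (SE 0.479, interval -1.79 to 0.70, adjusted p = 0.712), and Smad4 by -0.00055 (SE 0.120, adjusted p = 1). The sh5 library lay below both EV libraries for 5 of the 8 genes, Smad2, Smad3, Smad7, Id1 and Skil, against 43.7% of all genes, and above both for 0, against 26.9%. Under median-of-ratios scaling Smad2 and Smad7 stayed below, whereas Skil turned to lie above with Tgfb1 and Smad4, and quantile normalization gave the same placement with Id1 below as well. The lone library has no spread of its own and was given that of the other groups. Intervals within 2-fold of TPM + 1 were had for 5 of the 8 genes, all but Id1, Smad7 and Tgfb2.

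**Figure D2:**
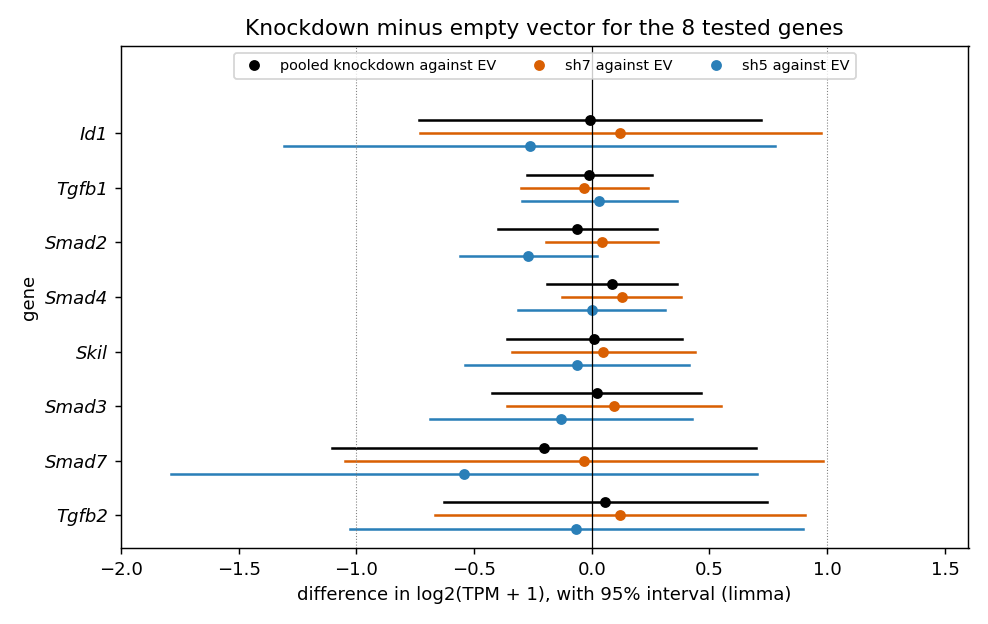
Log2 differences in TPM + 1 between knockdown and EV for the 8 tested genes, with 95% intervals from limma, for all knockdown libraries and for each construct, and with dotted lines at a 2-fold change. Every interval crosses 0, those of Tgfb1, Smad2 and Smad4 are narrow, and the sh5 interval of Smad7 reaches -1.79.

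The constructs were also compared with each other, without the EV libraries as a reference. Between sh7 and sh5, 0 of 8 genes passed limma's adjusted threshold, against 0.0157% of all genes, and Smad2 alone had an unadjusted p under 0.05, on the higher side, where 17.1% of all genes did so, beside 3.56% on the lower side. Smad2 was higher in sh7 by 0.31 log2 units (SE 0.112, interval 0.023 to 0.60, adjusted p = 0.219), beside a median over all genes of 0.16. Both sh7 libraries lay above sh5 for Smad2, Smad3, Smad4 and Smad7, 4 of 8 genes, where 58.5% of all genes did so, and 0 lay below, where 23.9% did. Under median-of-ratios scaling and quantile normalization, which moved the median of all genes by -0.17 and -0.19, Smad2 was the 1 gene still above sh5 and Tgfb1 lay below it.

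For Smad7 and Id1 the replicates of sh7 differed more than the groups did. Smad7 was 2.13 times and Id1 1.83 times as high in sh7 replicate 2 as in replicate 1, and 97.7% and 97.0% of all tested genes had a smaller gap on the log2(TPM + 1) scale between these libraries. Without replicate 1 the log2 difference between sh7 and EV was 0.46 for Smad7 and 0.56 for Id1, and without replicate 2 it was -0.53 and -0.31. Without EV replicate 1 it was 0.25 for Smad7 and -0.12 for Id1, and without EV replicate 2 it was -0.32 and 0.36. Among 92 other tested genes, of the pathway lists and the set itself, the profile nearest to that of Smad7 over the 5 libraries was that of Id2, with a root mean square difference of 0.15 log2 units, followed by Id3 at 0.18. Id2 and Id3 encode relatives of Id1. Id2 was at 113 and 90.0 TPM with EV, 54.9 TPM with sh5, and 59.0 and 122 TPM with sh7. Id3 was at 70.0 and 65.0 TPM with EV, 49.7 TPM with sh5, and 56.2 and 102 TPM with sh7. Both were lowest in sh5 and highest in sh7 replicate 2, as was Smad7. Id2 and Id3 were chosen by their nearness to Smad7 in these same libraries, so the shared extremes largely follow from that choice. Genes outside the pathway lists and the set were not compared. Whether such nearness is unusual among all tested genes was thus not tested. The inhibitory Smad gene Smad6 (1.90 and 3.07 TPM in sh7) and the BMP-branch transducer gene Smad9 (1.45 and 2.77 TPM), named after their values were seen, also had their highest value in sh7 replicate 2.

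Within the same lists and set, the profiles nearest to Id1 were those of the metalloproteinase inhibitor gene Timp3 (0.18 log2 units) and the type II receptor gene Tgfbr2 (0.19). For Tgfb2 they were those of the AP-1 gene Junb (0.077) and of Skil (0.080), on the log2(TPM + 1) scale. That scale understates changes of low genes such as Tgfb2. In TPM, sh7 replicate 2 was at 1.88 times replicate 1 for Tgfb2, against 1.32 times for Junb and 1.26 times for Skil. Sh7 replicate 2 held the highest of the 5 values for 6 of the 8 tested genes, all but Tgfb1 and Smad4. It did so for 29.7% of all tested genes. The median gap between the sh7 libraries was 0.36 log2 units for the 8 genes, replicate 2 being higher, and 0.0095 for all genes. It was 0.24 for 13 genes of receptors and ligand activation, 11 of them (84.6%) higher in replicate 2, and 0.19 for 28 further response genes, 23 of them (82.1%) higher there. It was smaller for BMP and activin signalling, 0.099 with 11 of 17 genes (64.7%) higher, and for other Smads and regulators, 0.026 with 16 of 27 (59.3%). Of all tested genes, 52.0% were higher in replicate 2. In this order of lists, replicate 2 held the highest value for 53.8%, 42.9%, 41.2% and 48.1% of the genes. Which feature of the library moves with these genes was not tested.

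**Figure D3:**
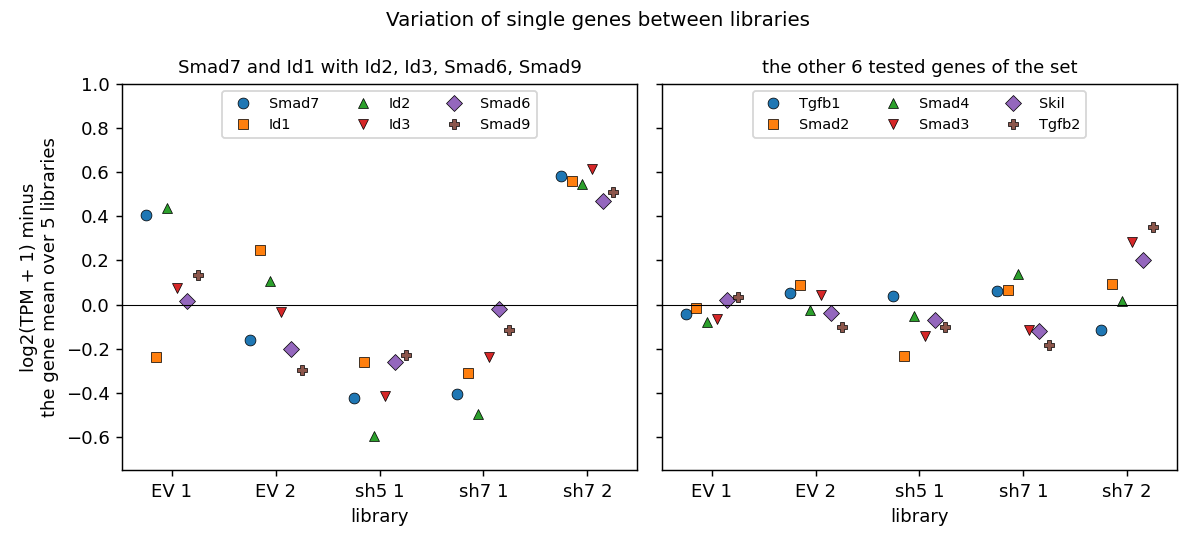
Log2(TPM + 1) of single genes in each library after subtraction of the gene's mean over the 5 libraries. Smad7, Id1, Id2, Id3, Smad6 and Smad9 are highest in sh7 replicate 2 (left), as are Smad2, Smad3, Skil and Tgfb2, while Tgfb1 and Smad4 are not (right). Id2 and Id3 were chosen from the pathway lists for profiles near that of Smad7, and Smad6 and Smad9 after their values were seen.

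The rest of the pathway was read from 4 lists, whose counts for sh7 stand beside 10.3% of all genes higher and 4.15% lower at an unadjusted p under 0.05 and a median of 0.089. In the pooled comparison 0 genes of any of them passed the adjusted threshold, and the medians were 0.064 for receptors and ligand activation, 0.055 for BMP and activin signalling, 2.98e-05 for other Smads and regulators, and -0.067 for response genes. Of 23 genes of receptors and ligand activation, 13 passed the filter. Tgfbr2 was at 61.2 and 76.8 TPM with EV, 60.4 TPM with sh5, and 77.1 and 104 TPM with sh7, and the type I receptor gene Tgfbr1 at 5.85 to 7.28 TPM. For sh7, 0 of 13 passed the adjusted threshold, 1 (7.69%) was higher and 0 lower at an unadjusted p under 0.05, no larger a share than in all genes, and the median was 0.10. That gene was Itgav, whose integrin subunit takes part in releasing latent TGF-beta, at 43.3 and 52.1 TPM with EV and 62.9 and 70.2 TPM in sh7 (log2 difference 0.48, SE 0.129, adjusted p = 0.277). Tgfbr2 differed by 0.38 (SE 0.190, adjusted p = 0.413) and the co-receptor gene Tgfbr3 by 0.43 (SE 0.190, adjusted p = 0.380). On the lower side by value were Ltbp4 (-0.13), Thbs1 (-0.13) and Itgb5 (-0.098), and Ltbp4 and Itgb5 turned when 1 library was left out. Itgb1 was the most abundant of the list, at 287 to 372 TPM. In sh5, Ltbp3, which encodes a latent TGF-beta binding protein, was at 11.7 TPM, against 23.8 and 25.0 TPM with EV and 26.2 and 23.99 TPM in sh7. It differed from EV by -0.997 (SE 0.141, adjusted p = 0.376). The protease gene Mmp14 differed by -0.68 (SE 0.241) and Nrros by 1.01 (SE 0.337) in sh5, and 0 of 13 passed.

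Of 35 genes of BMP and activin signalling, 17 passed the filter. Acvr1b, the type I activin receptor gene, was at 11.6 and 11.2 TPM with EV, 11.1 TPM with sh5, and 18.0 and 18.3 TPM with sh7. The sh7 libraries agreed closely and lay above all others, with a log2 difference of 0.63 (SE 0.122, adjusted p = 0.231). Bmp4, which encodes a BMP ligand, was at 6.68 and 2.80 TPM with EV, 11.9 TPM with sh5, and 10.1 and 7.99 TPM with sh7, and so was above both EV libraries in every knockdown library (pooled log2 difference 1.01, SE 0.340, adjusted p = 0.908). Its difference between sh7 and EV was 1.39 without EV replicate 1 and 0.38 without EV replicate 2. For sh7 the median was 0.13, 0 of 17 passed, and 1 (5.88%) was higher and 0 lower at an unadjusted p under 0.05, against 10.3% and 4.15% of all genes. Fstl1 lay at 29.3 and 41.0 TPM in sh7 and 17.8 TPM in sh5, with EV at 26.1 and 27.4 TPM. Bmpr2, Gdf11 and Inhba had the smallest p on the lower side for sh7 (log2 differences -0.23, -0.21 and -0.25), and the antagonist gene Nbl1 differed by 0.70 (SE 0.350) in sh5, where 0 of 17 passed. The most abundant were Gdf15 (43.2 to 68.8 TPM), Twsg1 (38.7 to 53.8 TPM) and Bmpr1a (31.7 to 42.6 TPM).

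Of 28 other Smads and regulators, 27 passed the filter. For sh7 0 passed the adjusted threshold, 3 (11.1%) were higher and 1 (3.70%) lower at an unadjusted p under 0.05, shares near those of all genes (10.3% and 4.15%), and the median was 0.13 beside 0.089. Tgif1, which encodes a Smad corepressor, was at 33.3 and 38.8 TPM with EV, 37.5 TPM with sh5, and 50.2 and 48.9 TPM with sh7 (log2 difference 0.45, SE 0.113, adjusted p = 0.267). Rnf111, which encodes the ubiquitin ligase Arkadia that removes SnoN, was at 12.5 and 14.4 TPM with EV and 20.0 and 18.4 TPM in sh7 (0.49, SE 0.138, adjusted p = 0.279). Smad1 was at 19.8 and 21.2 TPM with EV and 25.3 and 27.2 TPM in sh7 (0.34, SE 0.113, adjusted p = 0.317). On the lower side was Strap, whose product binds Smad7, at 152 and 160 TPM with EV and 129 and 126 TPM in sh7 (-0.29, SE 0.0774, adjusted p = 0.274), followed by Trim33 (-0.30, SE 0.140) and Tgif2 (-0.29, SE 0.147). In sh5, 20 of the 27 lay below both EV libraries, against 43.7% of all genes, with a median of -0.17 beside -0.054 for all genes, and 0 passed. The same held for 8 of 13 genes of receptors and ligand activation, 7 of 17 of BMP and activin signalling and 15 of 28 further response genes. Median-of-ratios scaling and quantile normalization moved the share of all genes to 33.8% and 33.0%. The lists were not placed again under these scalings. Ncor1, a corepressor gene, was at 42.3 TPM in sh5, against 93.7 and 80.8 TPM in EV (-1.02, SE 0.169, adjusted p = 0.376), and Zfyve9, which encodes the Smad anchor SARA, at 11.5 TPM against 16.0 and 15.7 TPM. Ppm1a (108 to 124 TPM) and Usp15 (70.5 to 96.1 TPM) were, after Strap, the most abundant.

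Of 40 further response genes, 28 passed the filter, and 10 stayed under 1 TPM in every library. Among these 10 were fibrogenic and contractile genes: Col1a1 at 0.264 to 0.895 TPM, Col3a1 at no more than 0.0128 TPM, Acta2 at no more than 0.118 TPM, Postn at no more than 0.0957 TPM and Tgfbi listed at 0 in 4 libraries. Fn1, which encodes the matrix protein fibronectin, was present at 37.5 to 65.0 TPM. For sh7, 0 of 28 passed the adjusted threshold, 3 (10.7%) were higher and 3 (10.7%) lower at an unadjusted p under 0.05, against 10.3% and 4.15% of all genes, and the median was -0.0088 beside 0.089. Cdkn2b, the cell cycle inhibitor gene through which TGF-beta halts epithelial cells, was at 26.7 and 27.0 TPM with EV, 27.2 TPM with sh5, and 16.1 and 15.6 TPM with sh7. The sh7 libraries stood clear of the other 3, with a log2 difference of -0.72 (SE 0.106, adjusted p = 0.163). Myc was at 199 and 181 TPM with EV and 140 and 148 TPM in sh7 (-0.40, SE 0.0891, adjusted p = 0.257), and the growth factor gene Hbegf differed by -0.41 (SE 0.140, adjusted p = 0.328). On the higher side, the integrin gene Itga5 was at 18.3 and 17.8 TPM with EV and 26.6 and 30.0 TPM in sh7 (0.62, SE 0.120, adjusted p = 0.229), Klf10 differed by 0.39 (SE 0.114, adjusted p = 0.283) and Angptl4 by 1.00 (SE 0.328, adjusted p = 0.314). Angptl4 passed without EV replicate 2 (1.47, adjusted p = 0.0393), where EV replicate 1 was the only control, at 4.50 TPM against 9.53 TPM in EV replicate 2. In sh5 the named genes were Angptl4 (1.14, SE 0.402), Cdkn1a (0.78, SE 0.294), Col5a1 (-0.89, SE 0.300) and Vegfa (-0.41, SE 0.146), and 0 of 28 passed.

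**Figure D4:**
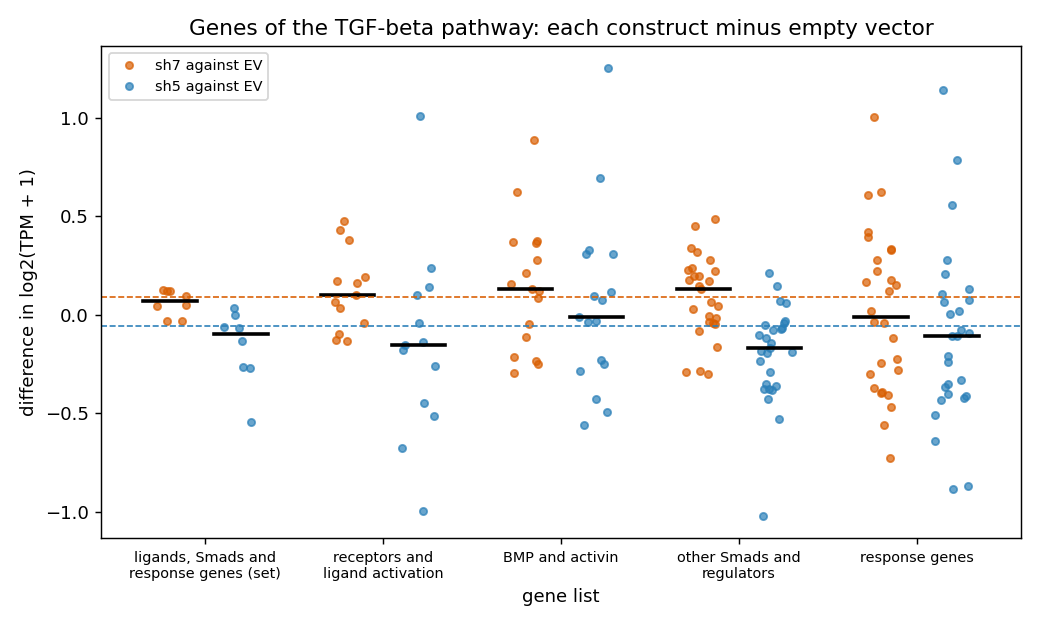
Log2 differences from EV for each tested gene of the 9-gene set and of the 4 pathway lists, in sh7 (orange) and sh5 (blue), with black bars at list medians and dashed lines at the medians of all 12728 tested genes. The 8 tested genes of the set lie between -0.034 and 0.13 in sh7, a narrower span than the other lists, whose sh7 points reach 1.00 and -0.72. The other lists hold more genes, which by itself widens a span. For Smad7 and Id1 the sh7 libraries lie on either side of EV, so their points average opposite differences. Their limma intervals in sh7 are -1.05 to 0.98 and -0.73 to 0.97.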

How the data were processed

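The members and the gene lists were chosen with earlier results of these data known. Of 9 samples, the 5 mRNA libraries were used, and the 4 small RNA samples are not analysed here. The deposited values are TPM, which the authors scaled so that each library sums to 1000000, with kallisto 0.48.0, per the submitters' processing notes. Not given in the sources used here were the build, the annotation and the summing of transcripts. TPM keep no depth, so reads per library are unknown and no counting error was derived.

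Columns were matched to samples by library name. Of 22339 IDs with no symbol, 19991 were named from a GRCm38.p6 reference table. The 12728 genes averaging 1 TPM or more were tested with limma 3.58.1 in R 4.3.3 (lmFit, eBayes with trend) on log2(TPM + 1), a scale that understates changes of low genes. Tests were two-sided, with Benjamini-Hochberg adjustment over all tested genes and 0.05 as the threshold. The pooled comparison had 2 arms, and the others came from a model with 3 groups. No label states that replicates were separate cultures, so p-values cover only the spread among these libraries, which may be technical. The steps were tested on simulated data with 200 changed genes. These were shifted alike in sh5 and sh7 and by more than the genes of the set differed, so smaller differences were not covered.

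Besides the 9 genes and Drosha, named genes were, per list, the 3 per direction with the smallest p for sh7, the 2 for sh5, the 3 most abundant, and the 2 nearest profiles of the 3 most variable members. Alternatives were a pseudocount of 0.1, no filter or 5 TPM, other scalings, the replicate number as a block, and each library left out. A gene of the response list is not reported here.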

Additional observations from a re-analysis of the deposited data

Results flagged for a closer look

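In 12 of 45 named genes of the pathway lists (26.7%) both sh7 libraries lay on one side of EV and the sh5 library on the other. Of all tested genes 17.9% did so, 14.0% with sh7 above and 3.89% with sh7 below, and 0 of the 8 tested genes of the set. Most of the 45 were named for a small p in sh7 or sh5, so the shares are not like for like. The difference between sh7 and sh5 was tested with limma, and 0 of the 12 passed (adjusted p 0.127 to 0.265). In 10 genes sh7 was the higher group. The log2 difference between sh7 and sh5 was 0.88 for Tgfbr3, 0.32 for Itgb1, 0.56 for Tgfbr2, 0.66 for Acvr1b, 0.92 for Fstl1, 0.37 for Bmpr1a, 0.59 for Rnf111, 0.41 for Smad1, 0.43 for Usp15 and 0.72 for Itga5. In 2 genes sh7 was the lower group, with -0.43 for Strap and -0.74 for Cdkn2b. The median over all genes was 0.16.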

How the results depend on the processing

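Of the 32 tests of the 8 genes in 4 comparisons, 0 passed the threshold under any alternative, the smallest adjusted p being 0.159 without EV replicate 2. Several directions turned, among them that of Id1 for sh5 (-0.26) and of Smad3 for sh7 against sh5 (0.23). Median-of-ratios scaling gave, pooled, Smad3 -0.018 and Skil -0.027; for sh7, Smad2 -0.058, Smad3 -0.0022 and Skil -0.050; for sh5, Smad4 0.084 and Skil 0.019; for sh7 against sh5, Smad4 -0.059 and Skil -0.069. Quantile normalization gave, pooled, Tgfb2 -0.061, Smad3 -0.027 and Skil -0.038. For sh7 it gave Tgfb2 -0.097, Smad2 -0.040, Smad3 -0.034 and Skil -0.081, and for sh5 Tgfb2 0.012, Smad4 0.061 and Skil 0.048. For sh7 against sh5 it gave Tgfb2 -0.11, Smad3 -0.022, Smad4 -0.017 and Skil -0.13. The replicate block gave Id1 0.11 pooled and, for sh5, Tgfb2 0.035, Id1 0.074 and Skil 0.0013. Deviations of same-numbered EV and sh7 libraries correlated at -0.016 across genes, so no pairing by number was seen, though this correlation cannot exclude one. The numbers are used here only to name the libraries.

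Leaving out 1 library each moved the pooled differences of Tgfb1 from -0.058 to 0.045, Tgfb2 from -0.11 to 0.16, Smad2 from -0.12 to 0.044, Smad3 from -0.12 to 0.096, Smad7 from -0.54 to 0.080, Id1 from -0.29 to 0.23 and Skil from -0.087 to 0.072. For sh7 the ranges were -0.12 to 0.057 for Tgfb1, -0.15 to 0.39 for Tgfb2, -0.0072 to 0.095 for Smad2, -0.10 to 0.29 for Smad3, -0.53 to 0.46 for Smad7, -0.31 to 0.56 for Id1, -0.11 to 0.21 for Skil, -0.22 to 0.024 for Itgb5 and -0.40 to 0.13 for Ltbp4. For sh5 they were -0.015 to 0.081 for Tgfb1, -0.13 to 0.0018 for Tgfb2 and -0.029 to 0.028 for Smad4. For sh7 against sh5 they were -0.15 to 0.024 for Tgfb1, -0.083 to 0.45 for Tgfb2, -0.049 to 0.82 for Id1 and -0.047 to 0.27 for Skil.

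Over all genes limma called 3 pooled, 2 for sh7, 0 for sh5 (1216 at an unadjusted p under 0.05) and 2 for sh7 against sh5. For sh7 it called 1 with a pseudocount of 0.1, under median-of-ratios scaling and under quantile normalization, and 4 at a mean of 5 TPM, where the pooled count was 1. With no filter it called 0 pooled, 0 for sh7, 180 for sh5 and 251 for sh7 against sh5. Under the replicate block it called 0 pooled, 0 for sh7 and 0 for sh7 against sh5 (583, 1594 and 1859 unadjusted). With 1 library left out, the counts ran from 0 to 3 pooled, 0 to 281 for sh7, 0 to 59 for sh5 and 0 to 4 for sh7 against sh5, with 281 and 59 reached without EV replicate 2. The causes were not tested. With 5 libraries of unknown depth, changes beyond 2-fold of TPM + 1 in Smad7, and for sh5 in Id1 and Tgfb2, still lay within the intervals. For Tgfb2 the pooled and sh7 intervals also allowed changes beyond 2-fold in TPM.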

Other observations

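Some genes of the pathway lists differed more between the 2 EV libraries than the 9 genes did, and they were named after their values were seen. Ccn1, a matricellular gene induced by TGF-beta and by cell stretch, was at 206 TPM in EV replicate 1 and 60.3 TPM in EV replicate 2, with 83.7 to 101 TPM in the knockdown libraries. Of all tested genes, 98.4% had a smaller gap between the EV libraries. The antagonist gene Fst was at 1.22 and 3.46 TPM, and Bmp4 at 6.68 and 2.80 TPM. These gaps, on the log2(TPM + 1) scale, exceeded those of 95.2% and 95.3% of all tested genes. For Tgfb1, Smad2 and Smad4 the share of genes with a smaller EV gap was 29.4%, 31.2% and 18.4%, whereas for Smad7 and Id1 it was 87.2% and 83.5%.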
